A study of Mus musculus with 12 samples.

Results

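The genes described are 8 mouse members of the PYHIN family, chosen by name as the IFI200 (interferon-inducible p200) group of DNA sensors with Aim2. They are Ifi203, Ifi204, Ifi205, Ifi207, Ifi209, Ifi211, Mndal and Aim2, and all 8 were found among the 53647 genes counted in each library. Of these, 7 had enough counts to enter the test over 14863 genes, and Ifi205 did not. Messenger RNA was sequenced in 12 libraries of wild-type mouse cells, 2 in each of 6 groups. The first pair of groups is labelled DC2.4, an immortalised mouse dendritic cell line, and received uniSTING mRNA or Mock mRNA encoding the fluorescent protein EGFP. The second pair is labelled 4T1, an epithelial breast cancer line of the mouse, and received the same mRNAs. The third pair is labelled DC2.4 and was incubated for 24 h with extracellular vesicles of 4T1 cells, prepared after uniSTING mRNA (EXOuniSTING) or Mock mRNA (EXOmock). A transfection reagent and lipid nanoparticles are both named as carriers of the mRNAs, but the carrier and the treatment time of each mRNA library are not given in the sources used here. Each group held a preparation 1 and a preparation 2. Nothing says that these were separate cultures, so the p-values rest on the spread between libraries alone, and that spread may be technical.

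PYHIN proteins combine a pyrin domain, which binds other pyrin domains, with a HIN domain, which binds double-stranded DNA. Aim2 senses DNA in the cytosol and assembles an inflammasome with the adaptor ASC and caspase-1, whereas p204, the product of Ifi204, has been linked to STING-dependent induction of type I interferon in mouse cells. Most IFI200 genes are themselves induced by interferon, lie side by side in 1 cluster, and differ in number and expression between mouse strains. STING is the adaptor that relays detection of cytosolic DNA to the kinase TBK1 and the factor IRF3, and the series title presents uniSTING as a mimic of it.

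Library totals were 14.1 to 26.0 M counts, and preparation 2 was 1.26 to 1.42 times as deep as preparation 1 in each group. The floor of 3 counts used here stood at 0.115 to 0.213 counts per M of library total (CPM); floors and intervals given here cover counting error only. Marker genes went against the cell line labels in both mRNA-treated pairs. The summed level of 20 epithelial markers was 5850 to 6180 CPM in the 4 mRNA libraries labelled DC2.4, 166 to 172 CPM in the 4 labelled 4T1 and 141 to 160 CPM in the 4 given vesicles. The summed level of 25 leukocyte and myeloid markers was 176 to 235 CPM, 10800 to 11200 CPM and 13400 to 16500 CPM in the same 3 sets. Ptprc, the gene of the leukocyte antigen CD45, had 0 to 19 counts in the first set and 302 to 327 CPM in the other 8 libraries. The 7 lymphocyte markers summed to at most 1.07 CPM in any library. The pancreatic gene Ins2 had 171 to 2117 counts and the lung gene Sftpc 421 to 729 counts in the 6 preparation 1 libraries, and both had 0 in the 6 preparation 2 libraries. All groups are therefore named by their labels, and what is said of a label holds for the libraries so labelled, not for a cell line.

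All 8 genes lie on chromosome 1 between positions 173178445 and 173859376 (GRCm39), a stretch of 681 kb that holds 19 annotated genes. Aim2 (ENSMUSG00000037860, 173178445 to 173293606, plus strand) stands at the near end. Ifi209 (ENSMUSG00000043263, 173458483 to 173475494, plus strand) follows, then Ifi207 (ENSMUSG00000073490, 173550993 to 173569313, minus strand) and Ifi204 (ENSMUSG00000073489, 173574859 to 173594509, minus strand). Mndal (ENSMUSG00000090272, 173676692 to 173708447), Ifi211 (ENSMUSG00000026536, 173723911 to 173740612), Ifi203 (ENSMUSG00000039997, 173747973 to 173770238) and Ifi205 (ENSMUSG00000054203, 173839564 to 173859376) are on the minus strand. The other 11 genes of the stretch include the family members Ifi202b, Ifi206, Ifi208, Ifi213 and Ifi214, and among the 11 only Ifi202b and the pseudogene Ifi203-ps reached 10 counts in any library.

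These genes are close copies of each other, and the deposited counts are of uniquely mapped reads, which lowers the count of a gene wherever a copy shares its sequence. In the GENCODE M21 transcripts, 72.8% of the distinct 50-base windows of Ifi211 also occurred in another gene, chiefly Ifi205 (44.7%) and Ifi204 (30.1%). The share was 33.7% for Ifi209, nearly all with Ifi214, 703 of 3512 windows for Ifi204, 19.6% for Mndal, 18.6% for Ifi205, 12.4% for Ifi203, 7.29% for Ifi207 and 0.742% for Aim2. With 100-base windows it was still 56.9% for Ifi211, against 0.79% for Ifi207 and 0% for Aim2. Values for Ifi211 and Ifi209 are thus the least certain of the set, and those for Aim2 and Ifi207 the least exposed to shared sequence. Counting was without strand, and Cadm3, which overlaps Aim2 on the other strand, had 0 to 2 counts.

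**Figure D1:**
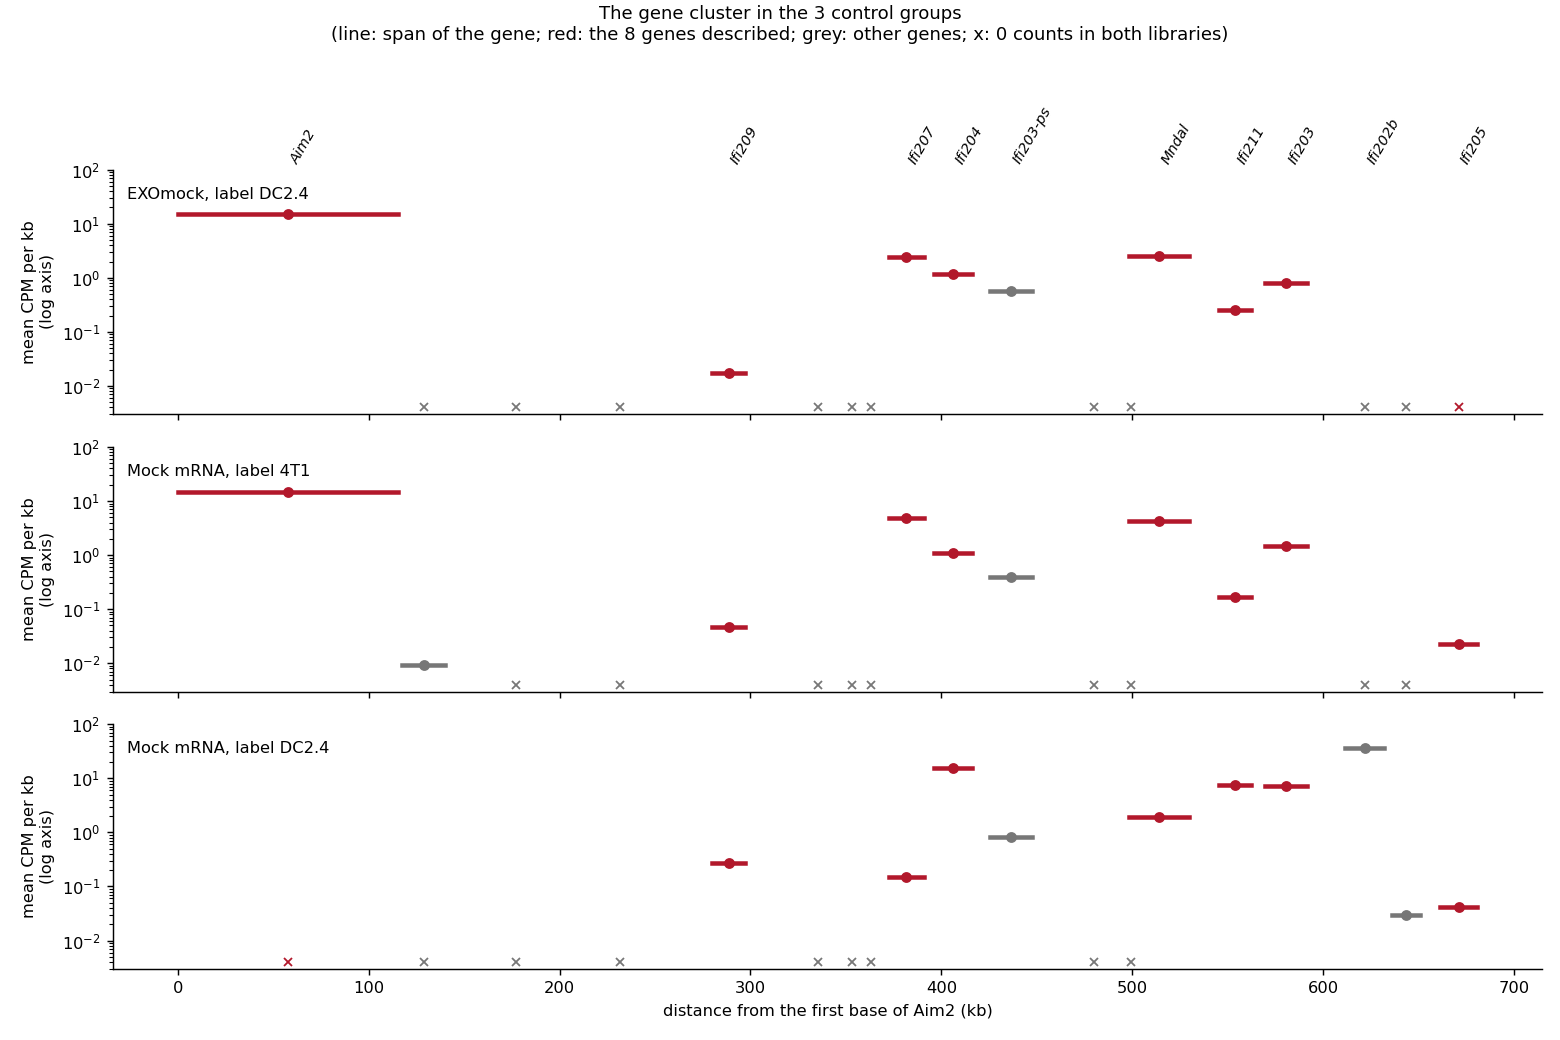
Mean CPM per kb of exonic length (log axis) in each control group, against the distance in kb from the first base of Aim2; each line spans a gene, red for the 8 genes described and grey for the others, and a cross marks 0 counts in both libraries. Aim2 stands at 15.2 CPM per kb in EXOmock and 14.8 in Mock labelled 4T1 and at 0 counts in Mock labelled DC2.4, while Ifi202b, which is not among the 8, leads in Mock labelled DC2.4 at 36.5 CPM per kb, ahead of Ifi204, Ifi211 and Ifi203.

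The stretches before the gene starts are shown because they carry the letters of an interferon-stimulated response element, GAAA, any 2 bases, and GAAA again. RefSeq promoter windows (GRCm38.p6, 250 bases before to 50 after a start, 300 bases) were available for 7 of the 8 genes. None was listed for Ifi204, which was therefore not searched for any motif. The motif, searched on both strands (TTTC, any 2 bases, TTTC on the other), was found in 5 of these 7 genes, Ifi203, Ifi205, Ifi207, Ifi211 and Mndal, and in 3.99% of all 27025 genes with a promoter window. In Ifi203 it stood in the window of 1 of its 2 listed starts. Stretches of 90 bases around the motif, written 5′ to 3′ along the gene with the motif in capitals, read as follows.
Ifi203 chr1:173942498-173942587 (minus): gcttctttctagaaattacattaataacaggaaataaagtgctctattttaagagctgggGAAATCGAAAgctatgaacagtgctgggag
Mndal chr1:173880194-173880283 (minus): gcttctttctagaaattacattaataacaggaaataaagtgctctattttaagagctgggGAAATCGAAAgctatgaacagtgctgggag
Ifi207 chr1:173741821-173741910 (minus): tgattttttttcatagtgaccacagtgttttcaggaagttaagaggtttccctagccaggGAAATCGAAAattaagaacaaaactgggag
Ifi211 chr1:173913054-173913143 (minus): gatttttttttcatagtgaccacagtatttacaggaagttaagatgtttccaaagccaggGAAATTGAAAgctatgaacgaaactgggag
Ifi205 chr1:174031860-174031949 (minus): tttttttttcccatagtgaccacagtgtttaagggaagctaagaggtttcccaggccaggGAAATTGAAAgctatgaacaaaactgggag
The motif began 35 to 41 bases before the start in Ifi203, Mndal, Ifi207 and Ifi211 and 134 bases before it in Ifi205. On the other strand the letters also began 54 bases before another listed start of Mndal and at base 24 after the start of Ifi205, and these matches are not printed. Compared base by base without gaps, the Ifi203 and Mndal stretches were the same at 90 of 90 positions. Ifi205, Ifi207 and Ifi211 shared 84.4 to 86.7% of positions with each other, and 45 to 51 of 90 positions with the first pair. The window listed for Aim2 lay inside the span used for its counts, not at the outer end of that span. Aim2 did not hold this motif. Its window held the PU.1-type letters GAGGAAGT (capitals below), which 3.69% of all genes hold on either strand (ACTTCCTC on the other).
Aim2 chr1:173420431-173420518 (plus): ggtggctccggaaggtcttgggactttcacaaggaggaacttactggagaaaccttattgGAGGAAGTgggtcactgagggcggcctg
Ifi209 held none of the motifs searched, and TTCNNNGAA, the core of the gamma-activated site (the same letters on both strands), was in no member's window and in 9.55% of all genes. A match or its absence describes these windows only.

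Levels of the members were compared between the 2 Mock mRNA groups first. Mock labelled 4T1 and Mock labelled DC2.4 differed in all 7 tested members at an adjusted p below 0.05 by edgeR's quasi-likelihood test, where 83% of all tested genes differed, 40.5% being higher and 42.4% lower in Mock labelled 4T1. Aim2 had 901 and 1336 counts in Mock labelled 4T1, against 0 and 0 in Mock labelled DC2.4. With 3 counts over the group as the floor, it was at least 684-fold higher in Mock labelled 4T1. Ifi207 stood at 14.8 and 17.7 CPM in Mock labelled 4T1 and at 0.343 and 0.681 CPM in Mock labelled DC2.4, a log2 fold change of 4.86 ± 0.20 (SE). Mndal, named for its likeness to the human myeloid cell nuclear differentiation antigen, stood at 13.9 and 17 CPM in Mock labelled 4T1 and at 7.03 and 6.53 CPM in Mock labelled DC2.4, a log2 fold change of 1.12 ± 0.13. These 3 genes were higher in every library labelled 4T1 than in any Mock library labelled DC2.4. The other 4 tested genes lay the opposite way. Ifi204 stood at 4.47 and 3.33 CPM in Mock labelled 4T1 and at 55.1 and 53.5 CPM in Mock labelled DC2.4, a log2 fold change of -3.90 ± 0.12. Ifi203 stood at 10.5 and 9.52 CPM in Mock labelled 4T1 and at 48.0 and 47.6 CPM in Mock labelled DC2.4, a log2 fold change of -2.34 ± 0.08. Ifi211 had 5 and 8 counts in Mock labelled 4T1 and 189 and 354 counts in Mock labelled DC2.4, a log2 fold change of -5.53 ± 0.28. Ifi209 had 6 and 0 counts in Mock labelled 4T1 and 20 and 17 in Mock labelled DC2.4 (log2 fold change -2.73 ± 0.85, adjusted p = 0.0091). Without preparation 1 of Mock labelled DC2.4 the adjusted p of Ifi209 was 0.0549, and without preparation 2 of Mock labelled 4T1 it was 0.0747.

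Among the 8 genes, per kb of exonic length, Aim2 led in the 4 groups with leukocyte markers and Ifi204 in the 2 groups with epithelial markers. Aim2 held 50.7% of the family's summed CPM per kb in uniSTING labelled 4T1 and 55.4% in Mock labelled 4T1. It held 50.2% in EXOuniSTING and 67.7% in EXOmock. In uniSTING labelled DC2.4, Ifi204 held 44.6%, Ifi211 26.6% and Ifi203 22.1% of that sum. In Mock labelled DC2.4 the same 3 genes held 47.3%, 23.3% and 22.1%. These shares were not corrected for shared sequence, which made up 56.9% of 100-base windows in Ifi211 and 10.7% in Ifi204. The order of Ifi204 and Ifi211 in true abundance is thus uncertain. The vesicle and 4T1 control groups, both with leukocyte markers, also differed. EXOmock against Mock labelled 4T1 gave 3 members called of 7, beside 53.7% of all tested genes (26.1% higher and 27.6% lower in EXOmock). The 3 were lower in EXOmock: Ifi207 by -0.99 ± 0.13, Ifi203 by -0.88 ± 0.12 and Mndal by -0.77 ± 0.13 on the log2 scale. Aim2 stood at 53.1 ± 1.37 CPM in EXOmock and 51.7 ± 1.83 CPM in Mock labelled 4T1 (SD, n = 2 each), and Ifi204 at 4.23 ± 1.06 CPM in EXOmock and 3.90 ± 0.81 CPM in Mock labelled 4T1. Both of those pairs lay within the spread between preparations. Label, carrier, vesicle incubation and any difference of mouse strain between the lines cannot be told apart between control groups. All libraries were aligned to the same reference, GRCm39, and the effect of strain on these levels was not tested.

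**Figure D2:**
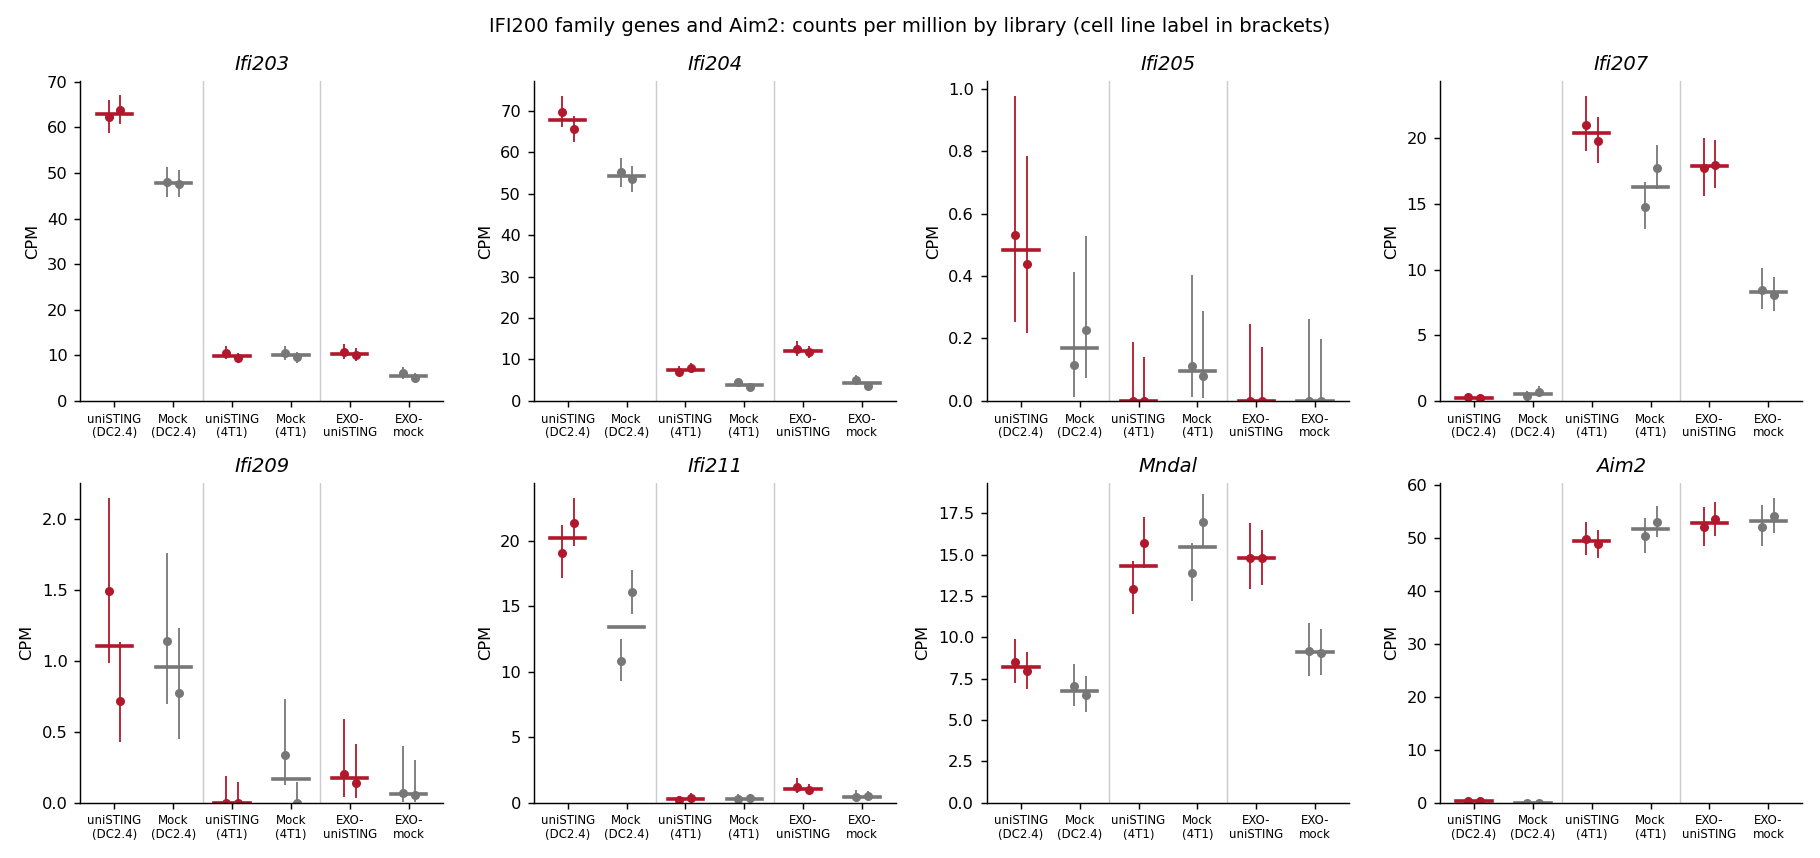
CPM of each of the 8 genes in each of the 12 libraries; points are libraries with 95% counting intervals, short horizontal lines are group means, red marks uniSTING or EXOuniSTING and grey its control. EXOuniSTING lies above EXOmock without overlap for Ifi203, Ifi204, Ifi207 and Mndal, while Aim2 stays between 48.8 and 54.1 CPM in all 8 libraries labelled 4T1 or given vesicles.

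Under the DC2.4 label with mRNA, Ifi203, Ifi204, Ifi211 and Aim2 were called higher with uniSTING than with Mock, and no member was called lower. These are 4 of 7 tested members, beside 20.8% of all tested genes called higher and 20.9% called lower in that comparison. The filter on low counts ran over all 12 libraries, and Aim2 and Ifi207 passed it only through their counts in the other groups. The 4 called thus include 1 gene, Aim2, that the libraries of this comparison alone would not have brought into the test. The median log2 fold change was 0.33 over the tested members and 0.00 over all tested genes. By edgeR, 1 member (Ifi207) was lower at an unadjusted p below 0.05, and DESeq2 and limma-voom also called 0 lower. Both uniSTING libraries were above both Mock libraries in CPM for 5 of the 7 members, beside 33.4% of all tested genes. In bulk libraries, fewer cells of a type and less RNA per cell cannot be told apart.

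Ifi204 was the most abundant member per kb in these libraries. It stood at 69.7 and 65.6 CPM with uniSTING, against 55.1 and 53.5 CPM with Mock. Both uniSTING libraries were above both Mock libraries, and the log2 fold change was 0.33 ± 0.09 (SE, adjusted p = 0.00629). Ifi203, a nuclear DNA-binding member, stood at 62.2 and 63.8 CPM with uniSTING, against 48.0 and 47.6 CPM with Mock, again without overlap (log2 fold change 0.42 ± 0.07, adjusted p = 0.000232). Ifi211 had 19.1 and 21.4 CPM with uniSTING, against 10.8 and 16.1 CPM with Mock. The groups of Ifi211 did not overlap, but its 2 Mock libraries lay further apart than the gap between the groups (log2 fold change 0.61 ± 0.16, adjusted p = 0.0083). The median log2 fold change of tested genes of similar exonic length was 0.18 for Ifi211, 0.05 for Ifi204 and -0.06 for Ifi203. Leaving out 1 library ended 2 of these calls. For Ifi204 the adjusted p was 0.0585 without preparation 2 of Mock and 0.0553 without preparation 1 of uniSTING, and for Ifi211 it was 0.115 without preparation 1 of Mock, where the log2 fold change was 0.36, and 0.0861 without preparation 2 of uniSTING.

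Aim2 was near the limit of detection under this label. It had 5 and 7 counts with uniSTING, against 0 and 0 with Mock, which is at least 3.6-fold higher with 3 counts over the group as the floor (adjusted p = 0.000766). The uniSTING level, 0.272 ± 0.0098 CPM (n = 2), compares with 49.3 ± 0.72 CPM in uniSTING labelled 4T1. The 25 leukocyte and myeloid markers summed to 235 and 213 CPM with uniSTING and to 195 and 176 CPM with Mock in these libraries. Lcp1, which encodes the actin-bundling protein plastin 2, made up most of that sum, at 135 to 138 CPM with uniSTING and 111 to 117 CPM with Mock. Of the 25 markers, 1 and 12 were at 0 counts with uniSTING and 3 and 10 with Mock. Ptprc had 19 and 0 counts with uniSTING and 8 and 0 with Mock, and the myeloid factor gene Spi1 had 5 and 1 counts with uniSTING and 1 and 2 with Mock. The part of such RNA in the counts of Aim2 was not tested.

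The remaining members did not pass the test. Mndal stood at 8.49 and 7.94 CPM with uniSTING, against 7.03 and 6.53 CPM with Mock. Its groups did not overlap (log2 fold change 0.30 ± 0.14, adjusted p = 0.106). Ifi207 had 5 and 6 counts with uniSTING, against 6 and 15 with Mock, a log2 fold change of -1.04 ± 0.43 (adjusted p = 0.0886). Without preparation 1 of Mock its adjusted p was 0.0403, so that 1 member was then called lower. Ifi209 had 28 and 18 counts with uniSTING, against 20 and 17 with Mock, with overlapping groups. Ifi205, whose product has been reported to control expression of the adaptor ASC in mouse macrophages, had 10 and 11 counts with uniSTING, against 2 and 5 with Mock. The ratio of its summed counts per library total was 2.7 (95% exact counting interval 1.11 to 7.52), and it was not tested. Ifi211 holds 18.5% of the 50-base windows of Ifi205.

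Under the 4T1 label, only Ifi204 was called of the 7 tested members. It was higher with uniSTING, beside 12.6% of all tested genes called higher and 15.7% called lower. Both uniSTING libraries were above both Mock libraries in CPM for Ifi204 and Ifi207, beside 33.9% of all tested genes. The median log2 fold change was -0.04 over the tested members and -0.01 over all tested genes. The 7 include Ifi209 and Ifi211, which passed the filter on low counts only through other groups. Ifi204 stood at 7.03 and 7.89 CPM with uniSTING, against 4.47 and 3.33 CPM with Mock. The groups did not overlap, and the log2 fold change was 0.94 ± 0.15 (adjusted p = 0.000411). It was 0.63 within preparation 1 and 1.21 within preparation 2.

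Ifi207, which has been linked to STING in mouse cells, stood at 21.0 and 19.8 CPM with uniSTING, against 14.8 and 17.7 CPM with Mock under the 4T1 label. Its groups did not overlap, and the adjusted p was 0.0698 (log2 fold change 0.29 ± 0.11). Upper-quartile factors, limma-voom, a fit of only the libraries compared and a fit without preparation 2 of Mock each put it below 0.05, at 0.0484, 0.0261, 0.0349 and 0.0340, so that 2 members were then called. Aim2 had 49.8 and 48.8 CPM with uniSTING, against 50.4 and 53 CPM with Mock. Both uniSTING libraries lay just under both Mock libraries, and the test did not pass (log2 fold change -0.10 ± 0.05, adjusted p = 0.194). The ratio of its summed counts per library total was 0.948 (95% exact counting interval 0.894 to 1.01). Ifi203 stood at 10.5 and 9.35 CPM with uniSTING and 10.5 and 9.52 CPM with Mock, and Mndal at 12.9 and 15.7 CPM with uniSTING and 13.9 and 17 CPM with Mock. For both genes the preparations differed more than the treatments. Ifi211 had 4 and 10 counts with uniSTING and 5 and 8 with Mock. Ifi209 had 0 and 0 counts with uniSTING and 6 and 0 with Mock. No member was called lower by edgeR, DESeq2 or limma-voom, and 1 (Ifi209) was lower at an unadjusted p below 0.05. Ifi209 was called lower with no filter on low counts (adjusted p = 0.0217) and without preparation 2 of Mock (0.0150), both resting on 6 counts of 1 library. Ifi205 had 0 counts with uniSTING and 2 and 2 with Mock.

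With vesicles, Ifi204, Ifi207, Ifi203 and Mndal were called higher in EXOuniSTING than in EXOmock, and no member was called lower. These are 4 of 7 tested members, beside 7.96% of all tested genes called higher and 8.14% called lower. The median log2 fold change was 1.11 over the tested members and 0.00 over all tested genes. The 7 include Ifi209, which passed the filter on low counts only through the mRNA libraries labelled DC2.4. It had 6 summed counts in EXOuniSTING and 2 in EXOmock, and its log2 fold change of 1.36 ± 1.34 is part of that median. By edgeR, 0 members were lower at an unadjusted p below 0.05, and DESeq2 and limma-voom called 0 lower.

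Ifi204 stood at 12.5 and 11.7 CPM with EXOuniSTING, against 4.98 and 3.48 CPM with EXOmock. The groups were far apart, at a fold of 2.92 (log2 fold change 1.54 ± 0.15, adjusted p = 1.95e-05). Ifi207 stood at 17.7 and 18.0 CPM with EXOuniSTING, against 8.46 and 8.08 CPM with EXOmock, a fold of 2.16 (log2 fold change 1.11 ± 0.13, adjusted p = 5.46e-05). Its 4 libraries formed a tight pair per group, with SDs of 0.215 and 0.275 CPM. Ifi203 stood at 10.7 and 10.0 CPM with EXOuniSTING, against 6.05 and 4.92 CPM with EXOmock (log2 fold change 0.93 ± 0.12, adjusted p = 0.000147). Mndal stood at 14.8 CPM in both EXOuniSTING libraries, against 9.18 and 9.04 CPM with EXOmock (log2 fold change 0.70 ± 0.13, adjusted p = 0.00258). Both EXOuniSTING libraries were above both EXOmock libraries in CPM for all tested members except Aim2, beside 28% of all tested genes. Among these members Ifi209 was at or under the floor. The lack of overlap in the 4 called genes is no separate result, since they were picked by their calls. Each of the 4 was called in every alternative run, including without any 1 library.

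Ifi211 had 18 and 20 counts with EXOuniSTING, against 6 and 9 with EXOmock. The groups did not overlap, but the test did not pass (log2 fold change 1.19 ± 0.41, adjusted p = 0.0624) except with no filter on low counts (0.0436). Ifi209 had 3 and 3 counts with EXOuniSTING and 1 and 1 with EXOmock, at or under the floor in every library, and Ifi205 had 0 in all 4. Aim2, the inflammasome sensor, had 52.0 and 53.5 CPM with EXOuniSTING, against 52.1 and 54.1 CPM with EXOmock. Its groups overlapped, and the ratio of summed counts per library total was 0.993 (95% exact counting interval 0.930 to 1.06). The leukocyte marker sum was lower with EXOuniSTING, at 14200 and 13400 CPM, than with EXOmock, at 16300 and 16500 CPM, and most of that gap was Lyz2, the lysozyme gene, at 6550 and 5770 CPM with EXOuniSTING and 8610 and 8640 CPM with EXOmock. Without Lyz2 the sum was 7650 and 7670 CPM with EXOuniSTING and 7740 and 7810 CPM with EXOmock. Of the 25 markers, 11 were lower and 10 higher in both EXOuniSTING libraries than in both EXOmock libraries. The part of these shifts in the family's values was not tested.

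**Figure D3:**
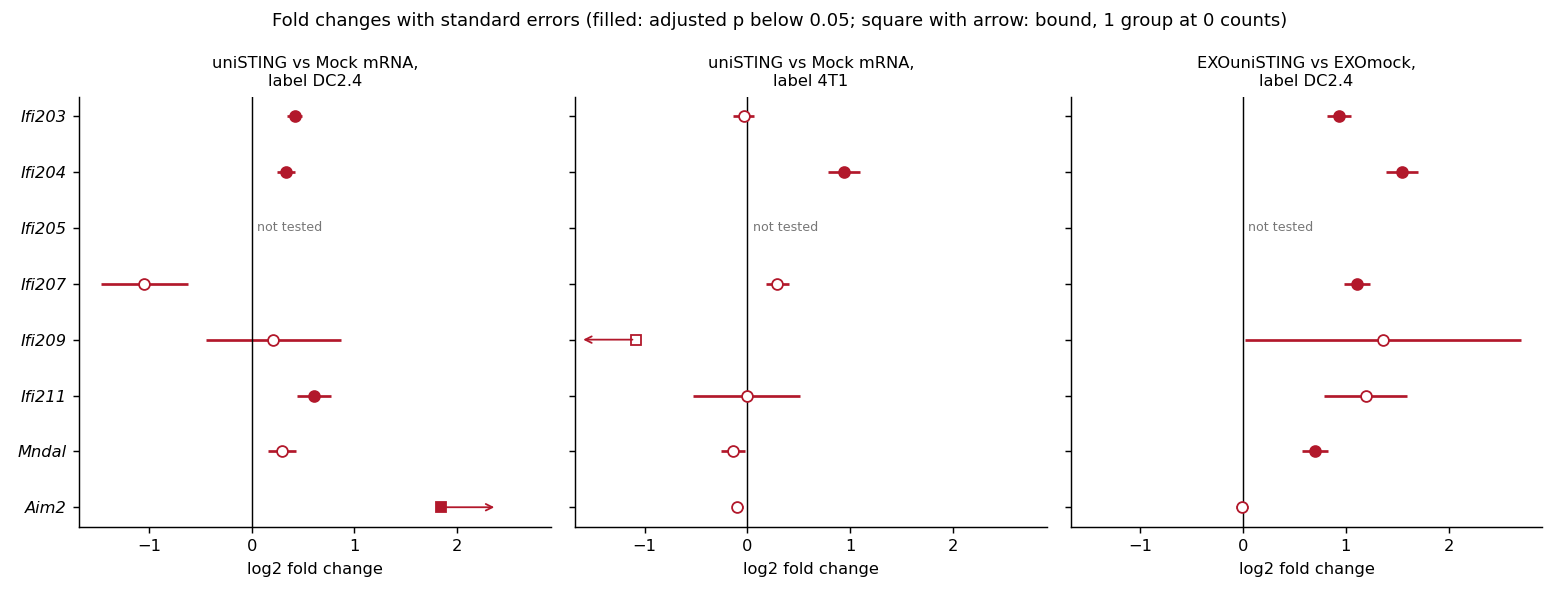
Log2 fold change of each gene in each of the 3 comparisons, uniSTING or EXOuniSTING over its control; bars are ± SE, filled symbols have an adjusted p below 0.05, and squares with arrows are bounds for a gene with 1 group at 0 counts. Filled points are 4, 1 and 4 of the 7 tested genes from left to right, and Ifi204 is filled in all 3 panels.

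Ifi204 was the gene called in all 3 comparisons, and its response under the DC2.4 label with mRNA differed in size from both others. Its response under the DC2.4 label with mRNA was smaller than that to vesicles by a log2 difference of -1.21 ± 0.18 (adjusted p = 0.000155) and smaller than that under the 4T1 label by -0.61 ± 0.18 (adjusted p = 0.0175). The vesicle response exceeded that under the 4T1 label by 0.60 ± 0.22, which was not called (adjusted p = 0.0612) but passed with DESeq2 (0.0353), no filter (0.0225) and preparation as a block (0.0486), and without preparation 2 of Mock labelled 4T1 (0.0306) or preparation 1 of EXOmock (0.0192). Of the 7 tested members, 4 (Ifi203, Ifi204, Ifi207 and Aim2) differed between the responses to mRNA under the DC2.4 and 4T1 labels, beside 31.1% of all tested genes. The call of Ifi207 there was lost with DESeq2 (adjusted p = 0.0692) and limma-voom (0.155). Aim2 and Ifi207 entered this test and the test against vesicles only through counts outside the mRNA libraries labelled DC2.4. In those libraries Aim2 had 12 summed counts with uniSTING and 0 with Mock, and Ifi207 had 11 with uniSTING and 21 with Mock. Ifi203 responded more under the DC2.4 label than under the 4T1 label, by 0.46 ± 0.12 (adjusted p = 0.00999). That call of Ifi203 was lost without preparation 2 of uniSTING labelled 4T1 (0.0616). The same 4 genes differed between mRNA under the DC2.4 label and vesicles, beside 30.6%, where Ifi203 was lost without preparation 2 of EXOmock (0.129) and Ifi207 without preparation 2 of Mock labelled DC2.4 (0.143). There were 3 such genes between vesicles and mRNA under the 4T1 label, beside 28%. The last 3 were Ifi203 (0.97 ± 0.15), Mndal (0.84 ± 0.18) and Ifi207 (0.82 ± 0.17), each larger with vesicles, in cells whose controls both carried leukocyte markers. These controls were not alike, as the same 3 genes were lower in EXOmock than in Mock labelled 4T1. Mean levels in EXOuniSTING were 10.4, 14.8 and 17.8 CPM for Ifi203, Mndal and Ifi207. In Mock labelled 4T1 they were 10.0, 15.4 and 16.3 CPM. The difference of Ifi204 between the 2 labels given mRNA was lost without preparation 2 of either group labelled 4T1 (adjusted p = 0.199 without that of Mock and 0.103 without that of uniSTING).

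Genes of the pathways around the family were read from lists chosen by function. Their counts stand beside shares of all tested genes of 20.8% higher and 20.9% lower under the DC2.4 label with mRNA, 12.6% and 15.7% under the 4T1 label, and 7.96% and 8.14% with vesicles, and small departures from these shares are not read as results. Of 13 tested inflammasome genes, 5 rose and 1 fell under the DC2.4 label with mRNA, 1 rose and 2 fell under the 4T1 label, and 1 rose with vesicles, with median log2 fold changes of 0.13, 0.00 and 0.07. Pycard, which encodes ASC, the partner of Aim2, stood at 35.3 CPM with uniSTING and 31.3 CPM with Mock under the 4T1 label and at 30.4 CPM with EXOuniSTING and 27.3 CPM with EXOmock, neither difference passing the test. Under the DC2.4 label with mRNA Pycard had 4 summed counts with uniSTING and 13 with Mock. There the inflammatory caspase gene Casp4 rose by 0.82 ± 0.18 on the log2 scale. Under the 4T1 label Nlrp3, the sensor of another inflammasome, fell by 0.35 ± 0.07. With vesicles the only inflammasome gene called was Nek7, a partner of NLRP3, at 0.12 ± 0.03.

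Of 25 tested genes of cytosolic DNA sensing, 6 rose and 7 fell under the DC2.4 label with mRNA, 3 rose and 7 fell under the 4T1 label, and 2 rose and 2 fell with vesicles. Their medians were 0.04, -0.01 and -0.01, beside 0.00, -0.01 and 0.00 over all tested genes. The helicase gene Dhx9 fell by 0.47 ± 0.03 under the DC2.4 label with mRNA and by 0.42 ± 0.05 with vesicles, and rose by 0.24 ± 0.03 under the 4T1 label. Prkdc, which encodes the DNA-dependent protein kinase, fell by 0.69 ± 0.08 under the DC2.4 label with mRNA and by 0.62 ± 0.07 with vesicles, and rose by 0.18 ± 0.06 under the 4T1 label. Zbp1, a sensor of Z-form nucleic acids, rose by 1.46 ± 0.45 with vesicles, with 38 summed counts in EXOuniSTING and 12 in EXOmock. It rose by 1.23 ± 0.35 under the DC2.4 label with mRNA, and it fell under the 4T1 label, on 2 summed counts with uniSTING and 11 with Mock. The endogenous STING gene (Tmem173 in the symbols used) was not called in any of the 3 comparisons, with log2 fold changes of 0.09, 0.03 and 0.19.

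Of 17 tested interferon signalling genes, 7 rose and 4 fell under the DC2.4 label with mRNA, 1 rose and 9 fell under the 4T1 label, and 6 rose and none fell with vesicles. Irf7, the interferon-inducible transcription factor gene, rose by 2.12 ± 0.17, 0.43 ± 0.15 and 2.05 ± 0.15 in these 3 comparisons. Those that fell under the 4T1 label included the receptor gene Ifnar1 (-0.32 ± 0.04), the feedback inhibitor gene Socs3 (-0.43 ± 0.05) and the factor gene Irf8 (-0.23 ± 0.03). Irf9, part of the complex that binds the interferon-stimulated response element, rose by 1.14 ± 0.11 under the DC2.4 label with mRNA and by 0.78 ± 0.11 with vesicles. Among 23 tested reference genes known to be induced by interferon, 21, 5 and 18 rose and 0, 1 and 0 fell. Their median log2 fold changes were 1.10, 0.12 and 1.25, beside 0.33, -0.04 and 1.11 for the IFI200 family with Aim2. Ifit1, which encodes an RNA-binding antiviral protein, rose by 2.20 ± 0.19 under the DC2.4 label with mRNA. Rsad2, which encodes the antiviral enzyme viperin, rose by 1.72 ± 0.28 under the 4T1 label and by 3.27 ± 0.24 with vesicles.

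**Figure D4:**
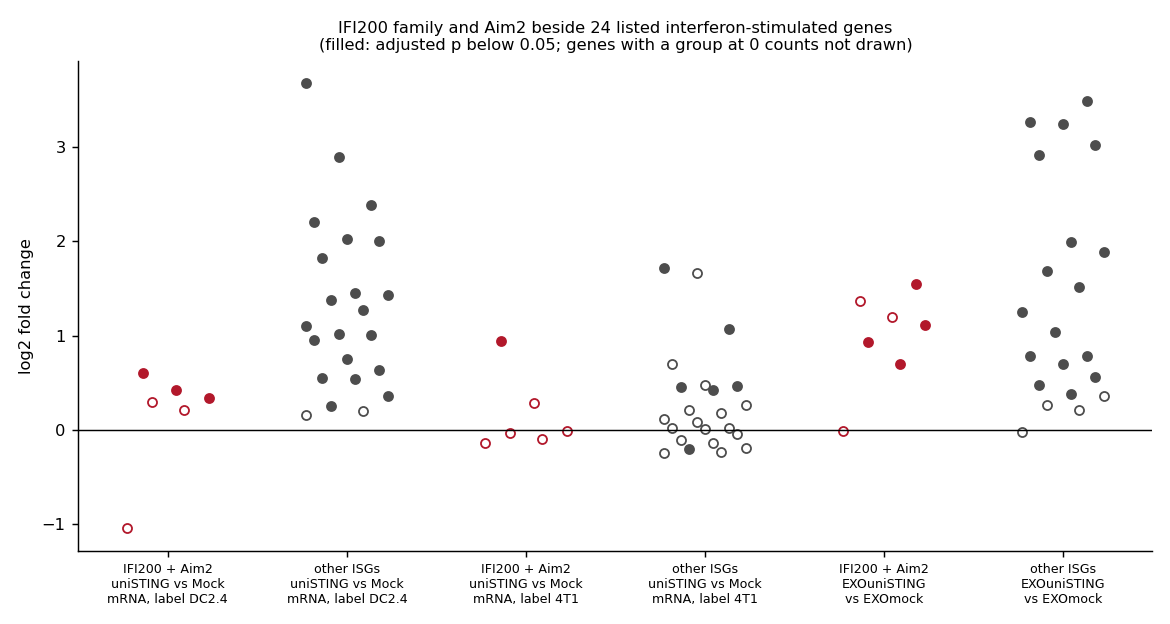
Log2 fold change of the IFI200 genes with Aim2 (red) and of listed interferon-induced genes (grey) in each comparison; each point is a gene, filled where the adjusted p was below 0.05, and genes with a group at 0 counts are not drawn. In the mRNA pair labelled DC2.4 the red points lie between -1.04 and 0.61 while the grey median is 1.10, and with vesicles both medians exceed 1.

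In the 4 mRNA libraries labelled DC2.4, the most abundant family gene of the cluster was outside the chosen 8. Ifi202b, a HIN-only member that binds DNA and has been described as an antagonist of Aim2 in mouse cells, had 1726 and 2330 counts in uniSTING labelled DC2.4, against 1072 and 1377 in Mock labelled DC2.4. It had 0 or 1 count in each of the other 8 libraries, whereas Aim2 had 733 to 1336 counts in those 8. Under the DC2.4 label with mRNA it stood at 92.3 ± 0.95 CPM with uniSTING and 61.9 ± 0.87 CPM with Mock (SD, n = 2 each), a log2 fold change of 0.60 ± 0.07 (adjusted p = 1.2e-05). The pseudogene Ifi203-ps had 160 summed counts with uniSTING and 81 with Mock in the same libraries. Ifi206, Ifi208, Ifi213 and Ifi214 had 0 to 2 counts in every library.

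Among 7262 genes with at least 5 CPM in a group and a call in 1 of the 3 comparisons, likeness of pattern was measured as the root mean square difference of centred group means of log2(CPM + 1) over the 6 groups. The genes most like Aim2 were the chemokine gene Ccl4 (0.099), Tmem154 (0.10) and Adssl1 (0.135). Those most like Ifi203 were Serpinb9 (0.234), Slc39a4 (0.247) and Rassf7 (0.248), and those most like Ifi204 were Dusp8 (0.344), Car9 (0.361) and Stard10 (0.375). The values are descriptions over 6 points that share the same libraries. The genes nearest to Aim2 were high in all 4 groups with leukocyte markers, as Ccl4 was at 41.5, 51.1, 53.1 and 50.3 CPM in uniSTING and Mock labelled 4T1, EXOuniSTING and EXOmock.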

How the data were processed

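The values are gene counts as deposited. HISAT2 alignment to GRCm39 is named in the submitters' processing notes. Per the file headers, uniquely mapped read pairs were counted with featureCounts (Subread 2.0.1) over exons summed by gene, without strand, on Ensembl release 103. A table of gene names matched 52093 of the 53647 identifiers. Per the labels, 1.0 µg of total RNA entered a NEBNext Ultra library kit.

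Differential expression was tested with edgeR 4.0.16 (R 4.3.3), fitting the 12 libraries together by group with filterByExpr (14863 genes), TMM scaling, the quasi-likelihood F test and Benjamini-Hochberg adjustment at 0.05. Each standard error is the fold change over the root of F. CPM are over deposited totals. Differences of responses were contrasts of the same fit. The scripts were tested on simulated counts. Alternatives were DESeq2 1.42.0, upper-quartile factors and DESeq2 size factors in edgeR, no filter, 1 CPM in 4 libraries, limma-voom (limma 3.58.1), only the libraries compared, preparation as a block, and leaving out each library. Folds within 1 preparation used 0.5 added counts. Promoter windows are from RefSeq and shared windows from GENCODE M21, both of the earlier assembly. Python 3.11.15 and matplotlib 3.10.9 made tables and figures.

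The 8 genes, the gene lists and the marker lists were chosen with earlier results of these data known. Besides the 8, genes named are the 3 with the smallest adjusted p per list and comparison, genes that a sentence on a pathway needs, markers, the 3 genes of most similar pattern for the 3 most abundant members, and genes inside the cluster. A gene that this rule names is not reported here.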

Additional observations from a re-analysis of the deposited data

Results flagged for a closer look

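The 11 results below are differences between the responses of 2 pairs of groups that passed an adjusted p of 0.05 in the test of the difference itself, by edgeR over all 14863 tested genes; values are log2 differences. The response to mRNA under the DC2.4 label minus that under the 4T1 label was 0.46 for Ifi203, -0.61 for Ifi204 and -1.33 for Ifi207 (adjusted p = 0.00999, 0.0175 and 0.0382). Without preparation 2 of uniSTING labelled 4T1, that of Ifi203 was not called (0.0616). That of Ifi204 was not called without preparation 2 of uniSTING (0.103) or of Mock (0.199) labelled 4T1. The value for Ifi207 rests on 5 and 6 counts with uniSTING and 6 and 15 with Mock under the DC2.4 label, and the call was lost with DESeq2 (0.0692), limma-voom (0.155), no filter (0.0636), preparation as a block (0.0614) and without preparation 2 of Mock labelled DC2.4 (0.556). It was also lost without preparation 1 or 2 of uniSTING labelled DC2.4 (0.0819 and 0.164), preparation 1 of uniSTING labelled 4T1 (0.0537) or preparation 1 of Mock labelled 4T1 (0.0706). The response under the DC2.4 label minus that to vesicles was -0.51 for Ifi203, -1.21 for Ifi204 and -2.16 for Ifi207 (adjusted p = 0.0121, 0.000155 and 0.00218); that of Ifi203 was lost without preparation 2 of EXOmock (0.129) and that of Ifi207 without preparation 2 of Mock labelled DC2.4 (0.143). The response to vesicles minus that under the 4T1 label was 0.97 for Ifi203, 0.82 for Ifi207 and 0.84 for Mndal (adjusted p = 0.000353, 0.00238 and 0.00271). All of these genes were lower in EXOmock than in Mock labelled 4T1. For Aim2 the fitted differences between mRNA under the DC2.4 label and the other pairs were 5.66 against mRNA under the 4T1 label and 5.57 against vesicles. They are fitted against 0 counts in Mock labelled DC2.4, so their size depends on the fit and is no bound; the counts behind them are 5 and 7 with uniSTING and 0 and 0 with Mock.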

How the results depend on the processing

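Of the counts of called genes, most stayed within 1.5 times under every alternative, and no result past the threshold changed sign; some that were not called did, such as Aim2 between EXOmock and Mock labelled 4T1 and Ifi211 within single preparations under the 4T1 label. The count over all genes for vesicles was 2393 and fell to 1591 with DESeq2 and to 1292 to 1532 without 1 library; DESeq2 gave an adjusted p for 11765 genes there. Leaving out a library leaves its group with 1, which is assumed to vary like the other groups. Members higher under the 4T1 label were 1, and 2 with upper-quartile factors, limma-voom or only the libraries compared, and 1 to 2 without 1 library. Members lower under the 4T1 label were 0, and 1 with no filter and 0 to 1 without 1 library; under the DC2.4 label with mRNA they were 0, and 0 to 1 without 1 library. Members differing between vesicles and mRNA under the 4T1 label were 3, 5 with no filter, and up to 5 without 1 library. The causes were not tested. Other scalings moved the median of all genes by at most 0.0184 on the log2 scale. The preparation number is in the labels, but nothing says that it marks a shared batch, and each comparison has 2 pairs. Differences between preparations correlated at 0.549, 0.351 and 0.277 within the 3 pairs of groups compared. Between a group labelled 4T1 and a vesicle group they correlated at 0.207 to 0.328. Between an mRNA group labelled DC2.4 and a group of another pair the correlation was -0.0066 to 0.0321. With preparation as a replicate block, members higher stayed at 4, 1 and 4 and members lower at 0, while differing members were 3, 4 and 4 in place of 4, 4 and 3. Depth limits Ifi205 and Ifi209 in all groups, Ifi211 outside the mRNA libraries labelled DC2.4, and Ifi207 and Aim2 within them.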

Other observations

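PYHIN proteins have been described as partners of cell cycle and p53 regulators, and 10 such genes were read from a list. Of the 10, all tested, 3 rose and 4 fell under the DC2.4 label with mRNA, 2 rose and 3 fell under the 4T1 label, and 3 rose and 4 fell with vesicles. Over all tested genes 20.8% rose and 20.9% fell, 12.6% rose and 15.7% fell, and 7.96% rose and 8.14% fell in these comparisons. Ccnd1, which encodes cyclin D1, fell in all 3 comparisons, by 0.43 ± 0.02, 0.19 ± 0.02 and 0.17 ± 0.03 on the log2 scale (SE). Id2, which encodes an inhibitor of helix-loop-helix factors, stood at 17.6 CPM with uniSTING and 7.66 CPM with Mock under the DC2.4 label and rose by 1.24 ± 0.10. It fell by 0.35 ± 0.06 under the 4T1 label and rose by 0.40 ± 0.07 with vesicles. Id3, a relative of Id2, rose by 2.39 ± 0.13 with vesicles, at 9.18 CPM with EXOuniSTING and 1.74 CPM with EXOmock. Mdm2, which encodes the ubiquitin ligase of p53, rose by 0.49 ± 0.03 in the mRNA libraries labelled DC2.4 and by 0.10 ± 0.03 under the 4T1 label, and fell by 0.10 ± 0.03 with vesicles.

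Summed over the 8 PYHIN genes, the level was 161 ± 1.2 CPM in uniSTING and 124 ± 2.05 CPM in Mock labelled DC2.4 (SD, n = 2 each). It was 102 ± 0.275 CPM in uniSTING and 97.9 ± 4.33 CPM in Mock labelled 4T1, and 109 ± 0.0075 CPM in EXOuniSTING and 80.7 ± 0.837 CPM in EXOmock. An SD of 2 libraries can fall below counting error, and the smallest of these SDs do not measure reproducibility.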
